A study of Mus musculus with 10 samples.

Results

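The genes described here encode the cell's sensors of RNA and DNA in the cytosol, with their adaptors and their shared kinase. They were taken by symbol from a list of 10 names, and all 10 were found among the 20813 genes of the deposited table, with cyclic GMP-AMP synthase under the symbol Cgas, RIG-I under Ddx58 and STING under Tmem173. The data come from bulk RNA sequencing of 10 samples of leukemic spleen, strain C57BL/6, from mice given acute lymphoblastic leukemia of the T lineage (T-ALL), a cancer of immature T cells. All recipients were irradiated below the lethal dose and received a T-ALL with a conditional Sirt1 knockout by intravenous injection, and red cells were lysed before RNA was extracted. The genotype label is Sirt1 deleted for 5 samples (TMX7, 8, 10, 11 and 12) and control for 5 (VEH2 to 6), called here by their numbers. By the protocol, mice received intraperitoneal tamoxifen (3 mg per mouse in corn oil) or, as control, corn oil alone, and the titles place tamoxifen with the labelled Sirt1-deleted samples. The effect of the deletion and that of tamoxifen therefore cannot be told apart. What drives the recombination, the number of primary leukemias behind the transplants and the age of the mice are not given in the sources used here, and a recipient irradiated below the lethal dose keeps blood-forming cells of its own.

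Foreign or misplaced nucleic acid in the cytosol is read by separate receptors. RIG-I (Ddx58) and MDA5 (Ifih1) bind double-stranded or uncapped RNA and signal through MAVS on the mitochondrial outer membrane, while LGP2 (Dhx58), a relative without the signalling domains, modulates both. Cyclic GMP-AMP synthase (Cgas) binds DNA and makes a cyclic dinucleotide that activates STING (Tmem173) on the endoplasmic reticulum. Both branches meet at the kinase TBK1, which phosphorylates IRF3 and so starts transcription of type I interferon. ZBP1 binds Z-form RNA and DNA and can trigger necroptosis through RIPK3 and MLKL, PKR (Eif2ak2) halts translation when it binds double-stranded RNA, and the exonuclease TREX1 removes cytosolic DNA before it is sensed. Several of these genes are themselves known to be induced by interferon.

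Summed over genes, the samples' normalized counts ranged from 33.7 to 34.5 M. They keep no raw read totals, so no counting intervals were computed, and the precision of each value is given by the spread over the 5 samples of a group. Nothing in the labels says how the transplants relate to each other, so p-values measure the spread between these samples. Sirt1 itself did not separate the groups, at 1873 ± 146 normalized counts (SD, n = 5) against 1810 ± 62.5 in controls (limma adjusted p = 0.568), so the group is called labelled Sirt1-deleted. A total over the gene does not check the labels where only some exons are removed, and which exons the allele loses is not given in the sources used here. The T-lineage markers Cd3d, Cd3e, Lck and Thy1 had values above 0 in all samples. In bulk tissue, fewer cells of a type and less RNA per cell cannot be told apart.

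Of the 10 genes, 7 rose in the labelled Sirt1-deleted samples: Dhx58, Zbp1, Ddx58, Ifih1, Trex1, Eif2ak2 and Cgas (limma with Benjamini-Hochberg adjustment over 15276 tested genes, adjusted p under 0.05). The same rule called 16.8% of all tested genes higher and 19.4% lower, 36.1% in all. The other 3, the adaptors Mavs and Tmem173 and the kinase Tbk1, did not pass. All 10 had a mean normalized count of at least 10 and were tested. Their median log2 difference was 0.51, beside -0.00014 over all tested genes. For 5 of the 10, all of them higher, no value of one group lay within the range of the other. Of tested genes 24% were separated in this way, and 11.1% were separated and higher. An exact permutation test with the same adjustment called those 5 genes, and 24% of all tested genes. With 5 samples per group it passed only the genes without overlap, so it restates that count and is not separate support. A gene not called by it is one whose groups overlap. By role, those that rose were the receptors, PKR and the exonuclease, and the largest differences were those of Dhx58 and Zbp1.

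**Figure D1:**
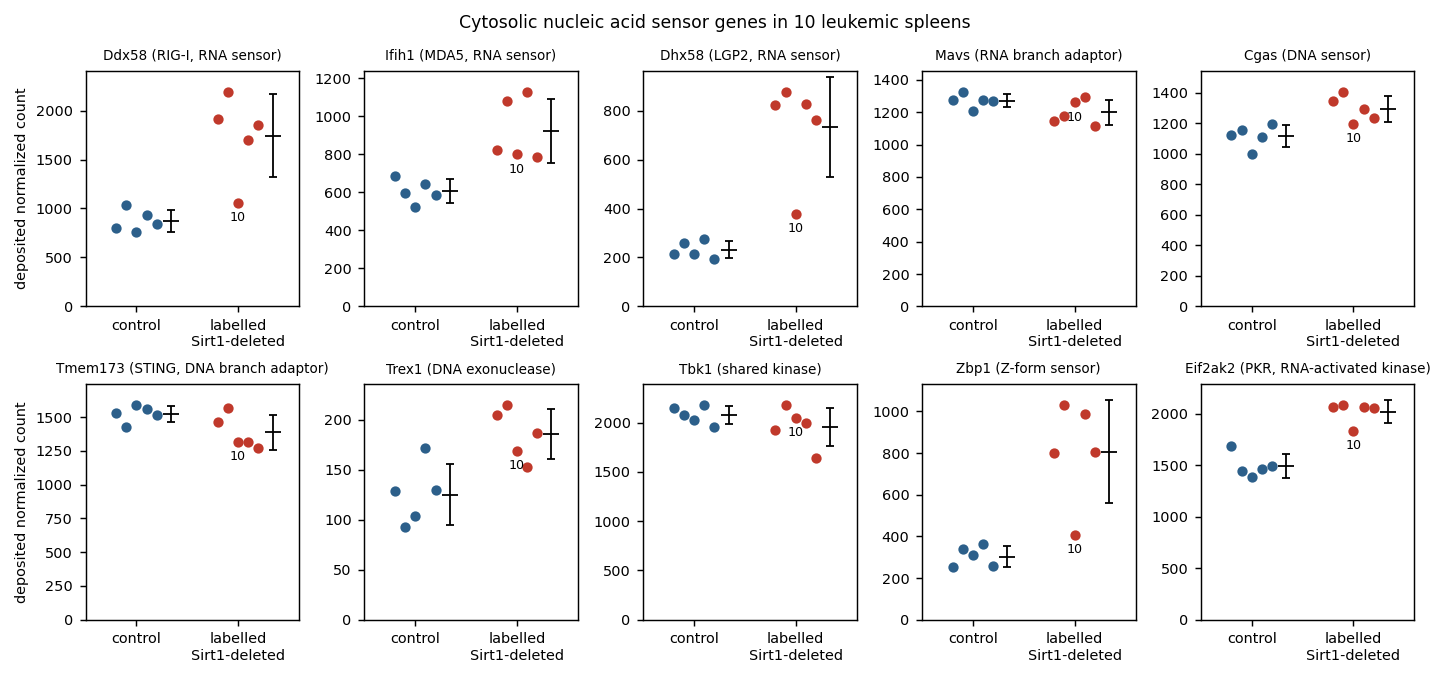
Deposited normalized counts of the 10 sensor genes (y axis, starting at 0) in 5 control and 5 labelled Sirt1-deleted spleens; points are samples, the bar beside each group is the mean with its SD, and the labelled Sirt1-deleted sample 10 is marked. The groups do not overlap for Ddx58, Ifih1, Dhx58, Zbp1 and Eif2ak2, and sample 10 lies nearest the controls for Ddx58, Dhx58, Zbp1 and Eif2ak2.

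Among the receptors for RNA, Dhx58 changed most. LGP2, its product, lacks the caspase recruitment domains by which its relatives signal. Control samples 2 to 6 measured 213, 258, 215, 277 and 195 normalized counts, and labelled Sirt1-deleted samples 7, 8, 10, 11 and 12 measured 824, 877, 377, 829 and 762. Every labelled Sirt1-deleted sample was above every control, and sample 10 stood apart from the other 4, which were close together. The log2 difference was 1.61 (SE 0.20, 95% interval 1.17 to 2.05; limma adjusted p = 0.000388), a 3.05-fold rise. It was larger than that of 98.5% of tested genes. The gene lies on chromosome 11, 100694884 to 100704271, minus strand (GENCODE M21, mm10).

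Ddx58 (chromosome 4, 40203773 to 40239828, minus strand) encodes RIG-I, which recognises short RNA with a triphosphate end. Its controls were at 799, 1034, 762, 929 and 843 normalized counts, and the labelled Sirt1-deleted samples at 1910, 2189, 1051, 1698 and 1857. The groups did not overlap, but sample 10, at 1051, was only 1.02 times the highest control. The log2 difference was 0.96 (SE 0.16, 95% interval 0.61 to 1.32; limma adjusted p = 0.00144).

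Ifih1 (chromosome 2, 62595798 to 62646255, minus strand) encodes MDA5, the receptor for long double-stranded RNA. Its controls measured 686, 596, 521, 646 and 587 normalized counts and the labelled Sirt1-deleted samples 821, 1080, 799, 1127 and 783. Here too every labelled Sirt1-deleted sample was above the controls, yet samples 8 and 11 were the high ones and sample 10 lay beside samples 7 and 12. The rise was smaller than that of Ddx58, with a log2 difference of 0.59 (SE 0.12, 95% interval 0.34 to 0.84; limma adjusted p = 0.00291), and whether the 2 genes differ in their response was not tested.

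MAVS, the adaptor that both RIG-I and MDA5 need, showed no such rise. Mavs (chromosome 2, 131234063 to 131248025, plus strand) measured 1279, 1325, 1207, 1278 and 1269 normalized counts in controls and 1146, 1179, 1260, 1295 and 1113 in the labelled Sirt1-deleted samples. The groups overlapped, and samples 7, 8 and 12 were below the lowest control. The log2 difference of -0.09 (SE 0.06) did not pass (limma adjusted p = 0.256), and its 95% interval, -0.21 to 0.04, lies wholly under those of Dhx58, Ddx58 and Ifih1. Without samples 10 and 11 together, Mavs passed as lower, at -0.15 (limma adjusted p = 0.0487).

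In the DNA branch, the genes Cgas and Trex1 passed and Tmem173 did not. Cgas (chromosome 9, 78430526 to 78443237, minus strand), which encodes the DNA sensor, measured 1125, 1154, 997, 1111 and 1195 normalized counts in controls and 1345, 1403, 1194, 1294 and 1234 in the labelled Sirt1-deleted samples. The groups touched, since sample 10 and control sample 6 had nearly the same value. The log2 difference was 0.21 (SE 0.07, 95% interval 0.07 to 0.35; limma adjusted p = 0.0237). This call was lost without labelled Sirt1-deleted sample 7 (0.198, adjusted p = 0.0571), sample 8 (0.183, adjusted p = 0.0595) or control sample 4 (0.173, adjusted p = 0.0569), and in an exact permutation test adjusted over all genes (adjusted p = 0.0512).

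Tmem173, which encodes STING, measured 1534, 1429, 1587, 1560 and 1515 normalized counts in controls and 1466, 1568, 1313, 1315 and 1270 in the labelled Sirt1-deleted samples. Samples 10, 11 and 12 were below every control, while samples 7 and 8 were within the control range. The log2 difference was -0.14 (SE 0.07, 95% interval -0.28 to 0.00; limma adjusted p = 0.111). With single samples left out in turn, it passed as lower once, without labelled Sirt1-deleted sample 8 (-0.187, adjusted p = 0.0376).

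Trex1 (chromosome 9, 109057933 to 109059734, minus strand) encodes the exonuclease that degrades DNA in the cytosol. Its controls measured 129, 92.3, 104, 172 and 130 normalized counts and the labelled Sirt1-deleted samples 205, 214, 169, 153 and 187. The groups overlapped because control sample 5 was above samples 10 and 11. The log2 difference was 0.59 (SE 0.17, 95% interval 0.23 to 0.95; limma adjusted p = 0.0164), and the exact permutation test adjusted over all genes did not call it (adjusted p = 0.0666). In the GENCODE M21 annotation all 1147 exonic bases of Trex1 lie within exons of Atrip on the same strand, so its value rests on how reads were divided between the pair and is uncertain. Atrip itself, which encodes a partner of the checkpoint kinase ATR, measured 1230 ± 60.8 against 1202 ± 63.5 normalized counts (mean and SD of 5 samples; log2 difference 0.03, limma adjusted p = 0.681).

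Tbk1 (chromosome 10, 121546455 to 121586787, minus strand), the kinase on which both branches converge, did not pass. Its controls measured 2145, 2080, 2023, 2175 and 1955 normalized counts and the labelled Sirt1-deleted samples 1925, 2176, 2046, 1992 and 1643. Samples 7 and 12 were below the lowest control, samples 10 and 11 were within the control range, and sample 8 was about level with the highest control. Its log2 difference was -0.09 (SE 0.07, 95% interval -0.24 to 0.06; limma adjusted p = 0.336), so a rise of the size seen for Ifih1 is outside the interval.

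Zbp1 (chromosome 2, 173206612 to 173218923, minus strand) encodes the receptor for Z-form nucleic acid. Controls were at 251, 338, 309, 362 and 258 normalized counts and the labelled Sirt1-deleted samples at 801, 1029, 405, 990 and 807. All labelled Sirt1-deleted samples were above the controls, and sample 10 was again far below the other 4. The log2 difference of 1.35 (SE 0.22, 95% interval 0.88 to 1.82; limma adjusted p = 0.00109) is a 2.55-fold rise, larger than that of 97.6% of tested genes.

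Eif2ak2 (chromosome 17, 78852564 to 78882573, minus strand) encodes PKR, a kinase of the translation factor eIF2. Controls measured 1686, 1442, 1388, 1460 and 1493 normalized counts, and the labelled Sirt1-deleted samples 2071, 2083, 1830, 2070 and 2060. The values of samples 7, 8, 11 and 12 were almost equal, sample 10 was lower, and control sample 2 was the highest control. A log2 difference of 0.44 was estimated (SE 0.06, 95% interval 0.30 to 0.57; limma adjusted p = 0.000621). The exon annotation places short antisense or opposite-strand genes across parts of Dhx58, Cgas and Eif2ak2. The libraries are strand-specific, but whether strand was used when reads were assigned is not given in the sources used here.

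**Figure D2:**
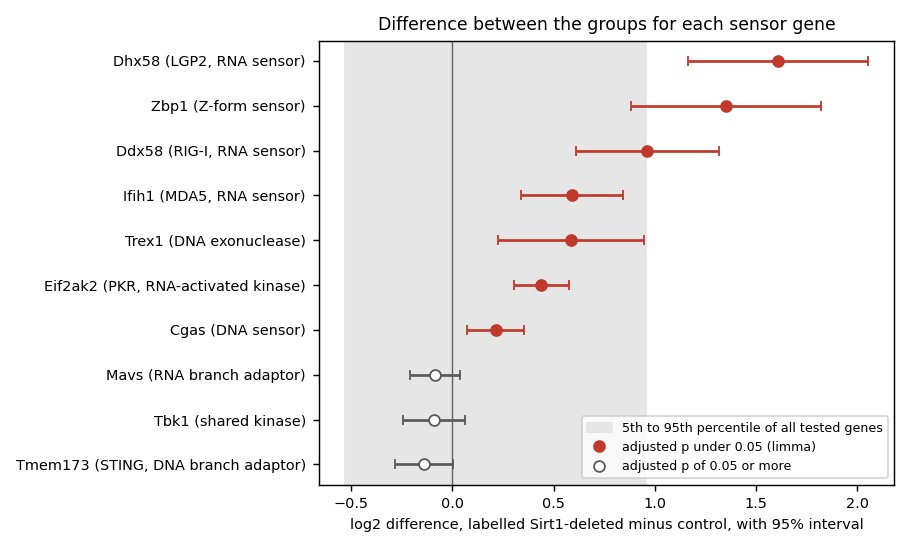
Log2 difference (labelled Sirt1-deleted minus control, x axis) of each of the 10 genes with its 95% interval from limma; filled points passed an adjusted p of 0.05 and open points did not, and the grey band spans the 5th to 95th percentile of all 15276 tested genes, -0.53 to 0.96. The intervals of Mavs, Tbk1 and Tmem173 reach or cross 0, and the points of Dhx58, Zbp1 and Ddx58 lie at or beyond its right edge.

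The promoters of some of these genes carry the sequence bound by interferon-activated factors. RefSeq promoter windows of 300 bases (250 before and 50 from the start site, GRCm38.p6, the assembly also called mm10) were searched for 7 of the 10 genes. No window of Dhx58, Zbp1 or Tmem173 was searched, so the genes with the largest rises, Dhx58 and Zbp1, are not covered. Both strands were searched for the core of the interferon-stimulated response element (GAAA, then 2 bases of any kind, then GAAA again). It was present once each in Ddx58, Ifih1 and Eif2ak2, all of which rose without overlap, and was not among the letters of the windows of Cgas, Trex1, Mavs and Tbk1. Of 32841 promoter windows searched, 3.44% held it. The 3 matches are shown because they all lie just after the start site, with the motif in capitals and its bases counted from the start site as 1. They are at bases 3 to 12 in Ddx58 (chr4:40239804-40239833, minus strand, with the motif on the opposite strand), at bases 33 to 42 in Ifih1 (chr2:62646206-62646233, minus strand) and at bases 19 to 28 in Eif2ak2 (chr17:78882535-78882564, minus strand).
Ddx58: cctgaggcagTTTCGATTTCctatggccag
Ifih1: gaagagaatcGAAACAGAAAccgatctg
Eif2ak2: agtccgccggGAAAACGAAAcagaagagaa

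In lists of other genes of these pathways, the same core was present in 3 of the 23 genes with a promoter window that rose (13%) and in 8 of the 76 that did not (10.5%). Whether these shares differ was not tested. Ddx60, which encodes a helicase reported to assist RIG-I and rose, holds 2 copies upstream of its start (chr8:61928024-61928053 and chr8:61928058-61928087, plus strand), and Stat2, which also rose, holds 1 (chr10:128270266-128270295, plus strand). Eif2s1, which fell, holds 1 as well (chr12:78861850-78861879, plus strand). Its call was lost in 5 of the 10 fits leaving out a single sample. Ddx60, Stat2 and Eif2s1 are the named genes of these lists with a match, and whether the sites bear on the differences was not tested.
Ddx60, first copy: gtgatgaatgGAAACCGAAActtaaagctt
Ddx60, next copy: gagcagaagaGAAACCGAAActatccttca
Stat2: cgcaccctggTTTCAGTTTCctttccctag
Eif2s1: cctggagcaaGAAACAGAAActtacctctc

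Over the 10915 tested genes with a promoter window, this response element core was present in 6.53% of the genes that were higher, in 3.12% of those that were lower and in 3.65% of those not called, beside 4.04% of all. Among the 400 genes called higher by a log2 difference of at least 1 the share was 13.5%. The interferon gamma activated element TTCNNNGAA, searched in the same windows, occurred in 9.59% of the higher genes and 8.66% of all, and in the pathway lists in 13% of the genes that rose and 15.8% of those that did not. Among the 7 sensor genes with a searched window it was found in Eif2ak2 alone (chr17:78882732-78882760, minus strand), 170 to 178 bases upstream of the start.
Eif2ak2, upstream site: ctgcagagctTTCCCAGAAtggaagccag

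Sample 10 was lowest, relative to the rest of its group, for the genes with the largest rises. Relative to the median of the other 4 labelled Sirt1-deleted samples it was at 0.45 for Zbp1, 0.456 for Dhx58 and 0.558 for Ddx58. The ratio was 0.84 for Ifih1, 0.865 for Trex1, 0.884 for Eif2ak2 and 0.905 for Cgas. For Mavs, Tbk1 and Tmem173 it was 1.08, 1.04 and 0.944. Without sample 10 the log2 differences of Dhx58, Zbp1 and Ddx58 were 1.83, 1.58 and 1.13, and the count of genes that rose was 7 as before. Without samples 10 and 11 together they were 1.83, 1.54 and 1.19, and 7 genes again passed as higher.

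**Figure D3:**
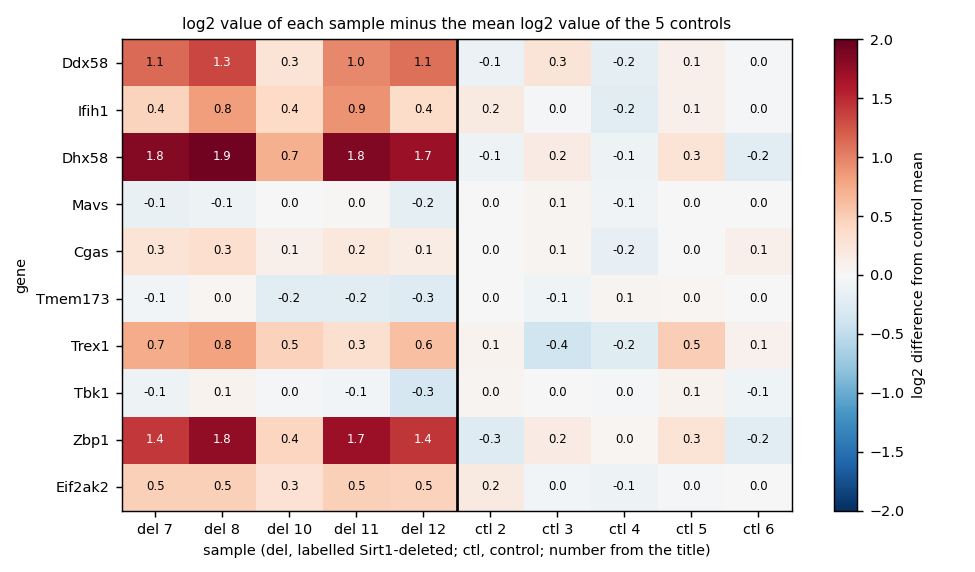
Log2 value of each gene (rows) in each sample (columns; del, labelled Sirt1-deleted; ctl, control) minus the mean log2 value of the 5 controls, with the value printed in each cell and a scale from -2 to 2. Dhx58 and Zbp1 stand out in samples 7, 8, 11 and 12 and are paler in sample 10, while the rows of Mavs and Tbk1 stay near 0.

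Marker genes of myeloid cells moved with the groups. Of 12 neutrophil markers 11 rose, and their summed level was 26905 to 92898 normalized counts in the labelled Sirt1-deleted samples against 8363 to 11635 in controls. Of 12 macrophage and monocyte markers 9 rose, with sums of 6513 to 11684 against 3081 to 3518. Of the 10 tested dendritic cell markers 4 rose (Siglech, Bst2, Itgax and Batf3), with sums of 7429 to 10326 against 5117 to 6842. Most of the rise in this sum was that of Bst2, with a mean of 4562 against 2074 normalized counts in controls. Bst2 is itself a gene known to be induced by interferon. Ccr9, Tcf4, Flt3, Zbtb46, Xcr1 and Clec9a did not pass. No marker of these 3 lists was at 0 in all samples, and Cd209a alone was at 0 in some (4 of 10). Of 10 T-lineage markers 3 rose (Cd3d, Thy1 and Lat) and 3 fell (Cd247, Cd5 and Cd28), with sums of 177707 to 217161 against 155807 to 173014. Most of the rise in this sum was that of Thy1, with a mean of 79592 against 53217 normalized counts in controls. Cd3e, Cd3g, Lck and Zap70 did not pass. Of 8 B cell, 5 tested NK cell and 10 erythroid markers none passed in limma, and 2 B cell and 1 erythroid marker had an unadjusted p under 0.05. Of 7 tested stromal and endothelial markers Pdgfrb fell.

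Sample 10 had the lowest neutrophil, macrophage, dendritic cell and T-lineage sums of its group. Sample 8 had the highest neutrophil and macrophage sums of its group. It was also the highest of its group for Ddx58, Dhx58, Zbp1, Cgas, Trex1 and Eif2ak2, while sample 11 was the highest for Ifih1. For Ddx58 the order of the labelled Sirt1-deleted samples was that of the neutrophil sum, and for Zbp1 and Dhx58 it was not. In samples 7, 8, 10, 11 and 12 the neutrophil sum was 55850, 92898, 26905, 37109 and 42192. Zbp1 and Dhx58 shared its highest sample, 8, and its lowest, 10, and differed from it in the order of samples 7, 11 and 12. The sensors are known to be expressed in both T cells and myeloid cells. The part of these cells in the differences of the sensor genes was not tested.

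**Figure D4:**
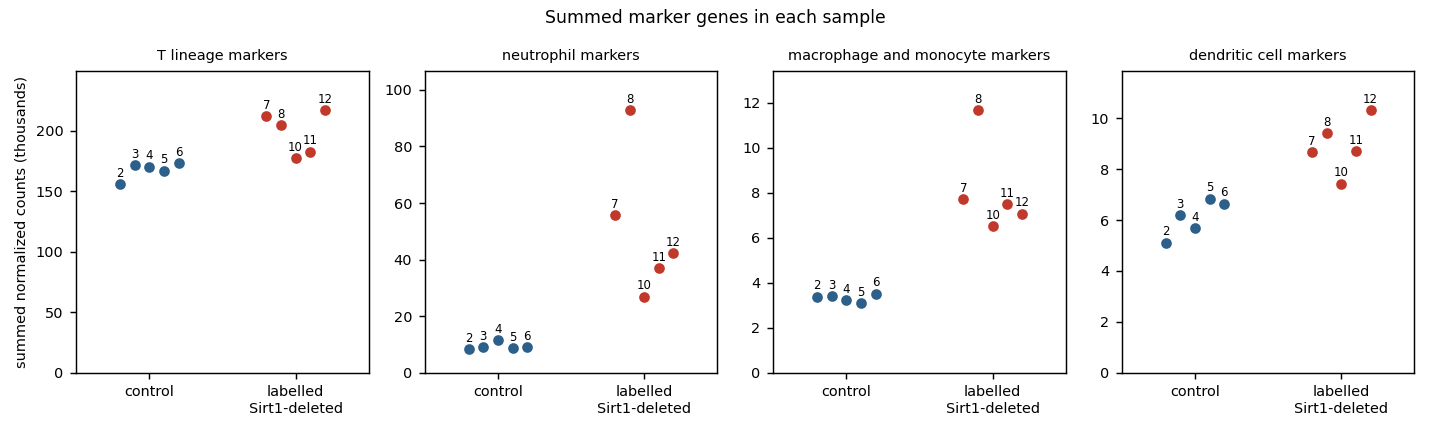
Summed normalized counts (y axis from 0, in units of 1000) of marker genes of T cells, neutrophils, macrophages and monocytes, and dendritic cells in each sample, labelled by sample number. All labelled Sirt1-deleted samples lie above all controls in the 4 panels, and sample 8 has the highest neutrophil and macrophage sums, at 92898 and 11684. Most of the rise in the T cell sum is that of Thy1, and most of that in the dendritic cell sum is that of Bst2. Several other markers in these panels did not pass or fell.

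The wider pathways were followed through 10 lists with 141 genes, of which 122 had a row and 119 were tested. In these lists 31 genes rose (26.1%) and 30 fell (25.2%), beside 16.8% and 19.4% of all tested genes, and the median log2 difference was 0.01. The split depended on scaling, at 37 higher and 22 lower after upper-quartile rescaling and 35 higher and 23 lower after quantile normalization. Irf7, Ddx60 and Usp18 exceeded Dhx58 in the size of the difference.

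**Figure D5:**
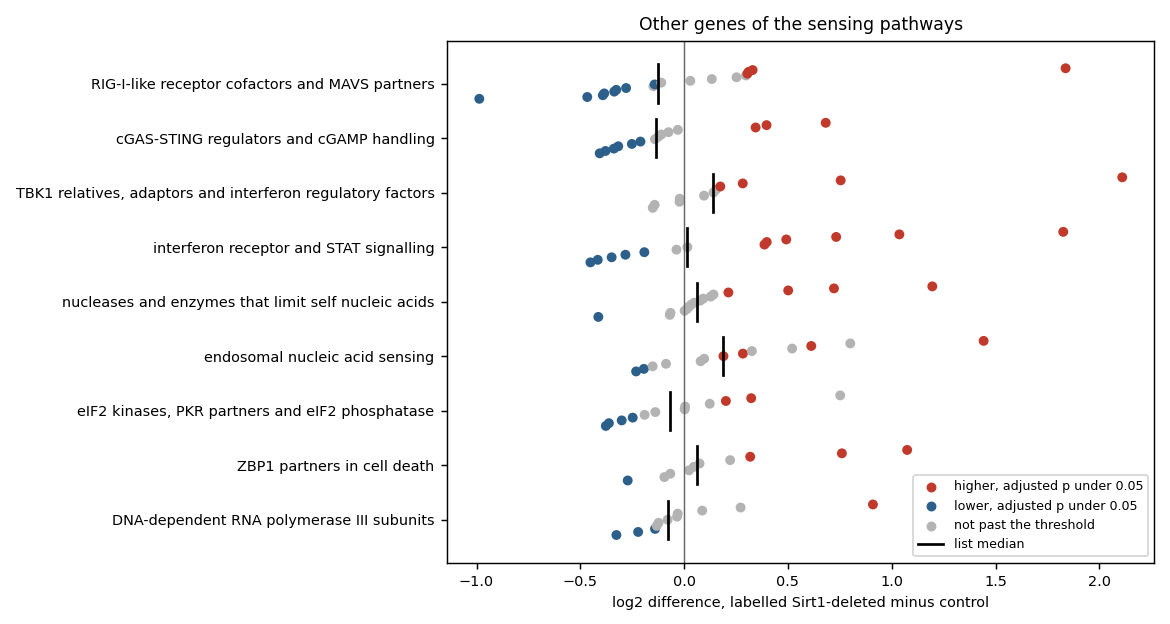
Log2 difference (labelled Sirt1-deleted minus control, x axis) of every tested gene in 9 lists of sensing-pathway genes; red and blue points passed an adjusted p of 0.05 as higher or lower, grey points did not, and black lines are list medians. The list medians lie between -0.13 and 0.19, and the points farthest from 0 are Irf7, Ddx60 and Usp18 on the right and Rnf125 on the left.

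Of 18 cofactors of the RNA receptors and partners of MAVS, 4 rose and 8 fell. The helicase gene Ddx60 rose from 54.3 ± 30.8 to 178 ± 33.0 normalized counts (mean and SD of 5 samples; log2 difference 1.84, limma adjusted p = 0.00115). Tradd (0.33) and Tarbp2 (0.30) also rose, Tradd not by permutation (adjusted p = 0.0512). Trim25, a ubiquitin ligase that activates RIG-I, rose by a log2 difference of 0.31 (limma adjusted p = 0.00152). Rnf125, a ubiquitin ligase that marks RIG-I, MDA5 and MAVS for degradation, measured 310, 345, 427, 370 and 232 normalized counts in samples 7, 8, 10, 11 and 12 and 577 to 780.5 in controls. It fell without overlap, with a log2 difference of -0.99 (limma adjusted p = 0.000761). Traf3, which links MAVS to TBK1, fell with a log2 difference of -0.47 (limma adjusted p = 0.00123).

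Of 14 tested regulators of cGAS, STING and their messenger, 3 rose and 6 fell. Rhbdf2, which encodes the STING trafficking factor iRhom2, rose from 196 ± 16.9 to 315 ± 32.3 normalized counts (mean and SD of 5 samples; log2 difference 0.68, limma adjusted p = 0.000756). Banf1, which encodes a chromatin-binding protein that restrains cGAS, rose (log2 difference 0.40, limma adjusted p = 0.00114), as did Rnf5 (0.34). Slc19a1, a folate carrier that also imports cyclic dinucleotides, fell from 2459 ± 115 to 1864 ± 223 normalized counts (log2 difference -0.41, limma adjusted p = 0.00256). Enpp1, which hydrolyses the messenger outside the cell, fell as well (-0.32, limma adjusted p = 0.029), though not by permutation (adjusted p = 0.0512).

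Of 11 genes for TBK1 relatives, adaptors and interferon regulatory factors, 4 rose. Irf7, the factor that amplifies interferon transcription, rose most, from 410 ± 59.4 to 1813 ± 445 normalized counts (mean and SD of 5 samples; log2 difference 2.11, limma adjusted p = 3.52e-05). Irf5 rose by a log2 difference of 0.75 (limma adjusted p = 0.0132), but the exact permutation test adjusted over all genes did not call it (adjusted p = 0.0512). Irf1 (0.28, limma adjusted p = 0.0351) and Irf3 (0.17, limma adjusted p = 0.0448), the direct substrate of TBK1, passed narrowly. Of the 10 fits leaving out a single sample, Irf3 kept its call in those without sample 10, sample 11 or control sample 3, and was at 0.143 without control sample 2 (adjusted p = 0.11). With all samples kept, Irf3 lost it without a filter on low values (adjusted p = 0.0577), with a mean of at least 1 (adjusted p = 0.0575), without the intensity trend (adjusted p = 0.077) and by permutation (adjusted p = 0.109). Irf1 lost its call without samples 7, 8 or 12 or control samples 2, 4 or 6, with differences from 0.235 to 0.287, and also without the intensity trend (adjusted p = 0.0697) and by permutation (adjusted p = 0.109).

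Ikbke, the inducible relative of Tbk1, measured 3706, 3433, 1939, 2625 and 2953 normalized counts in samples 7, 8, 10, 11 and 12, and 2347 to 2834 in controls. Sample 10 was below all controls and 3 samples were above them. Its log2 difference of 0.14 did not pass (limma adjusted p = 0.455), but without sample 10 it was 0.281 and passed (adjusted p = 0.0293). Without samples 7 and 8 in turn it was 0.0477 and 0.0752.

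Of the 20 type I and type III interferon genes listed, Ifnz and Ifnab had a row, and the others, Ifnb1 among them, are not analysed here. Ifnz measured 9.57 ± 6.89 against 12.9 ± 5.76 normalized counts (SD, n = 5 each; limma adjusted p = 0.374), and Ifnab, at 1.24 ± 1.17 against 1.20 ± 0.882, was too low to be tested. Of 13 genes of the interferon receptor and its STAT relay, 6 rose and 5 fell. Irf9 and Stat2, which encode transcription factor subunits activated by the receptor, rose by log2 differences of 1.04 for Irf9 (limma adjusted p = 0.000296) and 0.40 for Stat2 (limma adjusted p = 0.00573). The groups overlapped for Stat2, and the exact permutation test did not call it (adjusted p = 0.0512). Usp18, which dampens the receptor, rose by 1.83 (limma adjusted p = 0.000152), whereas the receptor gene Ifnar1 and the kinase gene Jak1 fell, to log2 differences of -0.19 for Ifnar1 (limma adjusted p = 0.0212) and -0.35 for Jak1 (limma adjusted p = 0.00303).

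Among 16 tested enzymes that limit the cell's own nucleic acids, 4 rose and 1 fell. Samhd1, which destroys deoxynucleotides, measured 1934, 1898, 1013, 1595 and 1816 normalized counts in samples 7, 8, 10, 11 and 12 and 544 to 869 in controls. It rose without overlap, by a log2 difference of 1.20 (limma adjusted p = 0.000689), and sample 10 was the lowest of its group here too. Adar, which edits double-stranded RNA and so hides it from MDA5, rose from 3138 ± 157 to 4452 ± 394 (SD, n = 5 each; log2 difference 0.50, limma adjusted p = 0.000413). The nuclease gene Dnase1l3 rose by 0.72 (limma adjusted p = 0.00784), and the 1 gene that fell was Lsm11 (-0.41).

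The subunits of RNase H2, which removes ribonucleotides from DNA, did not move together. Rnaseh2c rose by 0.21 (limma adjusted p = 0.0197; without control sample 2, 0.175 and adjusted p = 0.0501), while Rnaseh2a (-0.07, limma adjusted p = 0.300) and Rnaseh2b (0.03, limma adjusted p = 0.688) did not pass.

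Of 12 genes for eIF2 kinases, eIF2 subunits and their regulators, 2 rose and 4 fell. Eif2s1, which encodes the eIF2 subunit that PKR phosphorylates, measured 5666, 6116, 7628, 7588 and 4436 normalized counts in samples 7, 8, 10, 11 and 12 and 7778 to 8223 in controls. It fell by a log2 difference of -0.38 (limma adjusted p = 0.0286), with samples 10 and 11 just below the controls. The call was lost without samples 7 or 8 or control samples 2, 5 or 6 (differences from -0.374 to -0.347), and also without the intensity trend (adjusted p = 0.0624). Without samples 10 and 11 the difference was -0.58. Eif2ak3, which encodes the eIF2 kinase of the endoplasmic reticulum, fell (-0.36, limma adjusted p = 0.00188), as did Eif2ak4 (-0.25) and Ppp1ca (-0.30). Eif2s2 (0.32, limma adjusted p = 0.00246) and Eif2b5 (0.20) rose.

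Of 10 tested partners of ZBP1 in cell death, 3 rose and 1 fell. Casp1, an inflammatory caspase, rose from 25.1 ± 5.03 to 55.9 ± 19.1 normalized counts (mean and SD of 5 samples; log2 difference 1.07, limma adjusted p = 0.00775). Ripk3, the kinase that ZBP1 recruits, was at 1734 ± 206 against 1677 ± 184 normalized counts (limma adjusted p = 0.723). Mlkl, the executioner of necroptosis, passed at 0.76 (limma adjusted p = 0.0414) from a low level of 29.1 ± 9.25 to 49.1 ± 12.6, and of the 10 fits leaving out a single sample kept its call in those without sample 10 or control samples 2 or 3 (range over the 10, 0.577 to 0.898). With all samples kept, Mlkl was at 0.499 after quantile normalization (adjusted p = 0.143), and it also lost its call without a filter (adjusted p = 0.0526), with a mean of at least 1 (adjusted p = 0.0523) and by permutation (adjusted p = 0.0666). Pycard, the inflammasome adaptor, rose by 0.32 (limma adjusted p = 0.0240), a call lost without samples 7, 8 or 12 or control sample 2 (0.263 to 0.290), without the intensity trend (adjusted p = 0.0512) and by permutation (adjusted p = 0.109). Ripk1, a kinase of the same complex, fell (log2 difference -0.27, limma adjusted p = 0.00527).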

How the data were processed

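RNA of 10 leukemic spleens (5 per group) was sequenced from strand-specific libraries, per the labels' protocols. The authors deposited 1 table of normalized counts (a signal: counts divided by normalization factors). The submitters' processing notes name kallisto 0.44.0, DESeq and mm10, without role or order. How reads were assigned, and whether strand was used, is not given in the sources used here. Values were analysed as log2(value + 1) for genes with a mean of at least 10, by limma 3.58.1 with an intensity trend in R 4.3.3, with group as the only term and Benjamini-Hochberg adjustment over 15276 genes (threshold 0.05). A count model was not used because raw counts were not analysed here. The fit was tested on simulated data. A fold change on this scale understates that of low genes.

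Alternatives were other pseudocounts, filters, scalings, weights and thresholds, an exact two-sided permutation test (252 assignments, smallest p 0.00794), and leaving out samples. The 10 genes, the pathway and marker lists and the tests were chosen with earlier results of these data known. Named genes were the 10, Sirt1, the called genes among the 3 largest differences of each list, and genes acting directly with the 10. Atrip was named because it overlaps Trex1. Tradd, Tarbp2, Rnf5, Enpp1, Ifnar1, Jak1, Lsm11, Eif2ak4, Ppp1ca, Eif2b5, Ripk1, Polr3e, Cnpy3, Irak1, Slc15a4 and Rsad2 were chosen after their values were seen. Promoter windows came from RefSeq (GRCm38.p6) and gene positions from GENCODE M21.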

Additional observations from a re-analysis of the deposited data

Results flagged for a closer look

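In 6 of the 96 sets of 5 values examined (each named gene in each group), 1 sample lay so far from the others that its gap, as a share of the whole range, exceeded the 95% critical value of 0.71 for 5 samples. Chance flags about 1 in 20 such sets, which is 4.8 of 96. Among the labelled Sirt1-deleted samples, sample 10 was the lowest for Dhx58 (377 against 762 to 877 normalized counts, gap share 0.772) and for Eif2ak2 (1830 against 2060 to 2083, gap share 0.909). Sample 10 was also the lowest for Irf7 (1043 against 1815 to 2098, gap share 0.732) and for Irf9 (1879 against 2638 to 2944, gap share 0.713). Sample 12 was the highest for Banf1 (13753 against 11594 to 11956, gap share 0.833). In the control group, sample 4 was the highest for Ripk3 (2002 against 1560 to 1643, gap share 0.813).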

How the results depend on the processing

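The number of sensor genes called was 7 in the main fit and in the 9 alternatives that changed the pseudocount, filter, scaling, trend or weights, and 5 under the exact permutation test or at an adjusted p under 0.01. Cgas (0.213) and Trex1 (0.586) were the genes lost in both (permutation adjusted p = 0.0512 and 0.0666). Leaving out 1 sample at a time, Cgas ranged from 0.173 to 0.241 and Tmem173 from -0.187 to -0.111, and without samples 10 and 11 Mavs was at -0.15. Over all genes, 5518 were called, 3659 (1691 higher, 1968 lower) by permutation, 2850 (1328 higher, 1522 lower) at 0.01, and 4207 to 6259 with 1 sample left out. The 61 pathway genes became 36 (21 higher, 15 lower) at 0.01. Among all genes the share of calls that were higher was 46.4%, 58.5% after upper-quartile rescaling and 47.4% after quantile normalization, and in the pathway lists 50.8%, 62.7% and 60.3%. The sign of uncalled genes turned for Tlr9 (-0.196 after quantile normalization, -0.16 with array weights, -0.298 without samples 10 and 11, and -0.157 to 0.387 with 1 sample left out), Rnaseh2b (-0.0148 without samples 10 and 11), Ripk3 (-0.0142 to 0.111) and Tlr7 (-0.0413 to 0.572, both with 1 sample left out). No paired analysis was possible because no replicate number occurs in both groups. The deposited values keep no read depth, so genes at low levels, such as Casp1 and Mlkl, have no counting interval.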

Other observations

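The endosomal route to nucleic acids, which reads RNA and DNA taken up from outside, also held changed genes. Of 13 tested genes, 4 rose and 2 fell. Tlr13, a mouse receptor for bacterial ribosomal RNA, measured 73.6, 83.8, 65.6, 78.7 and 83.0 normalized counts in samples 7, 8, 10, 11 and 12 and 17.7 to 43.1 in controls (log2 difference 1.44, limma adjusted p = 0.00151). All labelled Sirt1-deleted samples were above the controls, and sample 10 was only a little below the others. Unc93b1, the chaperone that carries these receptors to endosomes, rose from 775 ± 56.6 to 1203 ± 235 (SD, n = 5 each; log2 difference 0.61, limma adjusted p = 0.0031). The protease gene Lgmn (0.28, limma adjusted p = 0.0267) and the chaperone gene Cnpy3 (0.19) rose. Lgmn lost its call without sample 8 (0.23) or control samples 3 (0.279), 4 (0.234) or 6 (0.275), without samples 10 and 11 (adjusted p = 0.0574), and by permutation (adjusted p = 0.0512). Irak1 (-0.19) and Slc15a4 (-0.23) fell, Irak1 not by permutation (adjusted p = 0.0512). Tlr7 and Tlr9, receptors for RNA and DNA, were low and did not pass (limma adjusted p = 0.564 and 0.907).

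RNA polymerase III transcribes AT-rich DNA into RNA that RIG-I can read. Among its 11 tested subunit genes, Polr3b (-0.33, limma adjusted p = 0.00784), Polr3f (-0.22, limma adjusted p = 0.0172) and Polr3e (-0.14) fell. By the exact permutation test none of these 3 passed (adjusted p = 0.0512 each), and Polr3f also lost its call after quantile normalization (-0.157, adjusted p = 0.0505).

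Of 10 reference genes known to be induced by interferon, 9 rose, with a list median of 1.97. The exception was Rsad2, which encodes the antiviral enzyme viperin. It measured 3439, 1262, 2749, 4516 and 2004 normalized counts in samples 7, 8, 10, 11 and 12 and 599 to 2614 in controls, and the groups overlapped (log2 difference 0.73, limma adjusted p = 0.155).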
